A study of Homo sapiens with 2 samples.

Results

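The 10 genes described here are azurophil granule protein genes, together with *SERPINB10* of the myeloid cell, and were taken by symbol from the 32738 genes counted. They are *MPO*, *ELANE*, *PRTN3*, *AZU1*, *CTSG*, *DEFA4*, *BPI*, *LYZ*, *SRGN* and *SERPINB10*, and all 10 were found. CD34+ cells made from the human induced pluripotent stem cell line IPS11 were cultured for 5 days in medium for the endothelial-to-hematopoietic transition (EHT). Wells were uncoated or coated with VCAM1, DLL4 or DLL4+VCAM1, and 3 wells were pooled for each condition. Nonadherent cells of each condition carried 1 of 4 hashtag antibodies and were captured together as 1 droplet library. The sources used here do not pair the hashtags (0252, 0253, 0254 and 0255) with the coatings, so all values are given by hashtag. With 1 library and 1 pool per condition, no test was possible and none was made. The 95% intervals are exact and cover counting error only.

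Azurophil granules are the first granules a neutrophil precursor makes, at the promyelocyte stage, and they store peroxidase, serine proteases and antimicrobial proteins. Their genes are switched on early under C/EBP factors and PU.1, and they are switched off before the later granules form. Monocyte and eosinophil precursors share part of this program. Myeloperoxidase, from *MPO*, makes hypochlorous acid. *ELANE*, *PRTN3* and *CTSG* encode neutrophil elastase, proteinase 3 and cathepsin G, and *AZU1* encodes azurocidin, a relative of these proteases without protease activity. *DEFA4* encodes a defensin, *BPI* a protein that binds bacterial lipopolysaccharide, and *LYZ* lysozyme. *SRGN* encodes serglycin, the proteoglycan core that holds basic proteins in granules of many blood cells. *SERPINB10* encodes an intracellular protease inhibitor of myeloid cells and not a protein of the granule itself.

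On hg19, *AZU1* (chr19:825097-832018), *PRTN3* (chr19:840999-848175) and *ELANE* (chr19:851014-856247) lie side by side on the plus strand within 31151 bases. *CTSG* (chr14:25042724-25045456, minus strand) is the other protease gene. In these cells the level of *CTSG* separated from those of *PRTN3* and *AZU1*, as described below. A link between promoter bases and levels was not tested. The 250 bases before the RefSeq start of the 3 protease-family genes with a promoter entry are shown. They are from GRCh38.p14, at chr19:840749-840998 (plus strand) for *PRTN3*, chr19:827587-827836 (plus strand) for *AZU1* and chr14:24576251-24576500 (minus strand) for *CTSG*. The RefSeq start of *AZU1* need not be the gene start given on hg19, and no position was converted between builds. Capitals mark matches to TTNNGNAA, a motif of C/EBP factors, and to GAGGAA, a motif of PU.1, on either strand.
PRTN3: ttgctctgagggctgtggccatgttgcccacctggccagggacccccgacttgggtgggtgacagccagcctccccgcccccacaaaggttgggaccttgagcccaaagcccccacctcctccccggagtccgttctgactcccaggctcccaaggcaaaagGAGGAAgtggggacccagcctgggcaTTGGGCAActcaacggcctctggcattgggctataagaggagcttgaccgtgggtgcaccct
AZU1: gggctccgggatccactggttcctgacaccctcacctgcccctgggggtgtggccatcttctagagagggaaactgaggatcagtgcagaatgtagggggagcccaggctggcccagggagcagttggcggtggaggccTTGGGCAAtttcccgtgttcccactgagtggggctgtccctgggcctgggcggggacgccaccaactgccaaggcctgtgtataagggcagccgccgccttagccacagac
CTSG: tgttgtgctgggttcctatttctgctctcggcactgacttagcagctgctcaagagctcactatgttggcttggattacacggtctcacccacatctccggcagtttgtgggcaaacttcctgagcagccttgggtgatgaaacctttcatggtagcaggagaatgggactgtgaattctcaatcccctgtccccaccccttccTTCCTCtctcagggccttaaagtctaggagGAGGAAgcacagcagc
The same C/EBP match, TTGGGCAA, stood 62 to 55 bases before the start of *PRTN3* and 111 to 104 bases before that of *AZU1*. The *CTSG* window held no match to these letters. A PU.1 match stood 88 to 83 bases before the *PRTN3* start, and 2 stood before *CTSG*, 46 to 41 bases and 16 to 11 bases upstream. No C/EBP or PU.1 match overlapped another match. Of 35116 RefSeq promoter windows of this length, 33.2% held a C/EBP match and 23.6% a PU.1 match, so both are common. A MYB motif, AACNGN, was found in all 3 windows and in 70.5% of all windows. A RUNX motif, TGTGGT, was in none of the 3 and in 11% of all.

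Counts are of unique molecular identifiers (UMIs) and are given as counts per 1000000 gene UMIs (CPM). Of 10836 barcodes, 7550 were called for 1 hashtag and had at most 36000 UMIs, 6000 genes and 18% mitochondrial UMIs. They held 142110950 UMIs, with a median of 18318.5 per cell. Reads were counted at transcript 3′ ends, so values were not divided by length, and levels of different genes also depend on how well each is captured. Over all cells *MPO* reached 1135 CPM (95% interval, 1129 to 1141) and *PRTN3* 1052 (1047 to 1057). *SRGN* stood at 398, *LYZ* at 185 and *AZU1* at 105. The other 5 members were low, with *ELANE* at 18.6, *DEFA4* at 17.6, *CTSG* at 17, *SERPINB10* at 6.71 and *BPI* at 4.81. An *MPO* UMI was read in 72.6% of cells and an *ELANE* UMI in 5.25%, although both encode proteins of the same granule. After each cell was thinned to 5000 UMIs these shares were 44.5% and 2.71%. Without thinning, an *MPO* UMI was also read in 77.0% of collagen cells and 64.8% of globin cells, groups described below that should lack granule genes. The share of cells with an *MPO* UMI is therefore not read as the share that express it.

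The UMIs of most members came from few cells. *MPO*, *ELANE*, *PRTN3* and *AZU1* are called the core genes below, and cells in which they summed to at least 2000 CPM are called granule-rich. There were 1120 granule-rich cells, 14.8% of all (14 to 15.7%). Their median depth was 18605 UMIs against 18245.5 in the 6430 other cells, and their median mitochondrial share was 11.2% against 13.4%. With a mitochondrial limit of 10%, which left 736 cells, 41.4% were granule-rich. Just inside the limit, 28 cells were up to 10% above it, and just outside, 53 were up to 10% below it. Granule-rich cells held 96.4% of *ELANE* UMIs, 96.2% of *PRTN3*, 95.2% of *DEFA4* and 92.9% of *SERPINB10*. They held 91.4% of *AZU1* and of *BPI* UMIs and 88.3% of *MPO*. *LYZ* and *SRGN*, which other blood cells also make, had 72.2% and 65.4% there. *CTSG* was the exception among the proteases, with 48.1%.

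Each member was higher in granule-rich cells than in the other cells. The 6 members outside the core did not enter the choice of cells, and for each core gene the cells were chosen on the other 3 core genes. *ELANE* differed most, 121 against 0.776 CPM (156-fold, 127 to 193), followed by *DEFA4* at 113 against 0.983 (115-fold, 95.8 to 139.6). *PRTN3* was 96.1-fold higher (94.1 to 98.1), *SERPINB10* 74.9-fold (58.5 to 97.3), *BPI* 60.8-fold (46.5 to 80.9) and *AZU1* 59.1-fold (55.9 to 62.6). *MPO* stood at 8750.5 against 319.8 CPM, 27.4-fold (27.1 to 27.7). The cells chosen numbered 773 for *MPO*, 1009 for *PRTN3* and 1109 for *AZU1*, against 1120 for the other members. The folds of these 3 genes therefore rest on other cells. In the 1120 granule-rich cells, a choice that includes it, *MPO* was at 6767 against 156 CPM. *LYZ* was 15-fold higher (14.6 to 15.4) and *SRGN* 10.9-fold (10.7 to 11.1). *CTSG*, at 55.2 against 10.4 CPM, had the smallest difference, 5.32-fold (4.91 to 5.77). Of the 8341 genes that reached 10 CPM in either set of cells, 3.85% were at least 2-fold higher in granule-rich cells and 4.3% were at most 0.5 times the other cells. *ELANE*, *DEFA4*, *BPI* and *SERPINB10* reached 10 CPM only through the granule-rich cells, so no count of members is read against these shares.

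The members rose at different points as the core level rose. Cells were placed in 8 bins by the summed core genes, so the rise of the core genes themselves is fixed by the bins and only the other 6 are free of it. From the first granule-rich bin (2000 to 4000 CPM, 263 cells) to the highest (32000 or more, 175 cells), *DEFA4* went from 1.96 to 679 CPM, 346 times. *BPI* went from 4.82 to 131 (27.1 times) and *SERPINB10* from 5.18 to 120.3 (23.2 times). *SRGN* went from 628 to 4274 (6.80 times) and *CTSG* from 26.3 to 159 (6.07 times). *LYZ* did not keep rising. It reached 1208 CPM in the bin from 8000 to 16000, 1157 in the next and 862 in the highest, and the hashtags did not go the same way. From the bin at 16000 to the highest, *LYZ* went from 1294 to 509.9 CPM in 0253 (99 and 74 cells) and from 1374 to 1615 in 0254 (25 and 10 cells).

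Among the core genes *ELANE* came last. It was at 2.14 CPM in the first granule-rich bin, 7.04 in the second, 28.1 in the third, 79.4 in the fourth and 823 in the highest, where 72.6% of cells had an *ELANE* UMI. In the first granule-rich bin 3.42% of cells had one. *DEFA4* followed the same late course, from 2.26 in the second bin to 24.8, 129 and 679 in the next bins. *PRTN3* was 36.4 times higher and *AZU1* 29.4 times higher in the highest bin than in the first, against 7.54 times for *MPO*. As a result the share of *MPO* in the core UMIs went down in steps over the granule-rich bins. Below the granule-rich limit the share went up instead. It was 60.1% (58.5 to 61.7) in the lowest bin of all and 68.3% (67.4 to 69.3) in the next. *MPO* itself was at 33.7 CPM in the lowest bin, under the 53.4 of the globin cells described below. It was at 150 in the next bin, under the 227 of the collagen cells. No course of expression is therefore read from the shares in these low bins. The share was highest, at 79.6% (78.9 to 80.3), in cells with 500 to 2000 CPM. From the first granule-rich bin upward it was 75.2%, 63.6%, 54.1%, 44.3% and 38.5% (38.2 to 38.8). In the highest bin the *MPO* shares of the 4 hashtags lay between 37% (36.5 to 37.4) in 0253 and 40.3% (39.1 to 41.5) in 0254. In the first granule-rich bin they were 78.3% in 0252, 76.4% in 0253, 72.9% in 0254 and 65.5% in 0255. In hashtag 0255 the steps were not even, with 69.0% in the second bin, which held 9 of its cells.

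**Figure D1:**
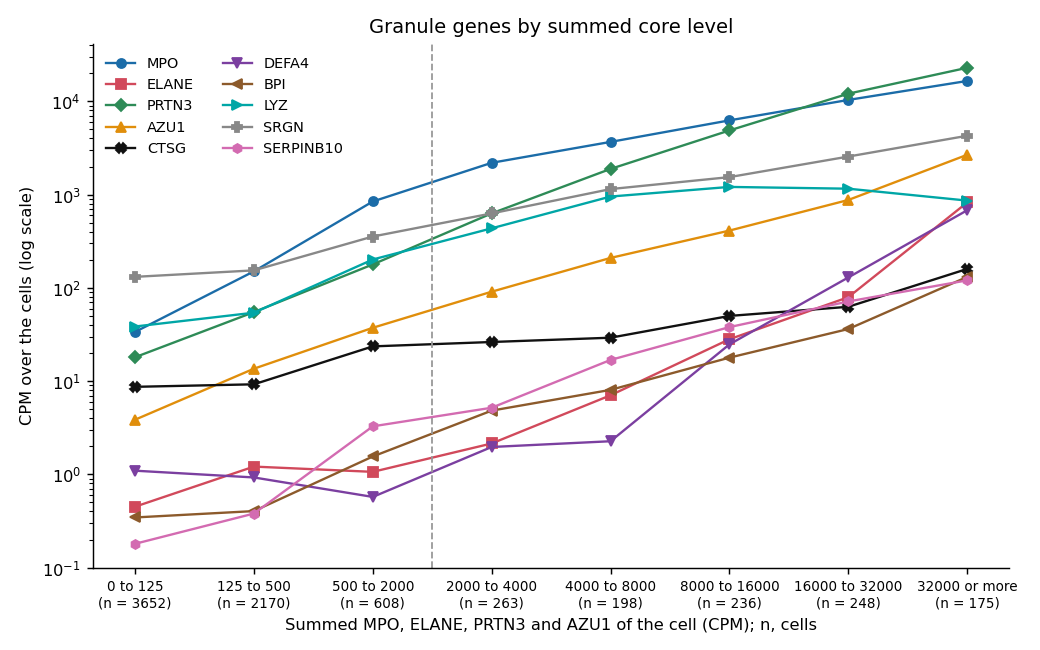
Level of each of the 10 genes (CPM, log axis) over cells grouped by their summed *MPO*, *ELANE*, *PRTN3* and *AZU1*, with the number of cells under each group and a dashed line at the granule-rich limit of 2000. *SRGN* is the highest gene in the groups under 500, *MPO* in those from 500 to 16000 and *PRTN3* in the last 2 groups. *ELANE* and *DEFA4* climb last, *LYZ* peaks in the group from 8000 to 16000, and *CTSG* starts above *ELANE* and *DEFA4*.

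Other markers moved along the same bins, and their part in these steps was not tested. The share of cells with *CD34* at 100 CPM or more was 42.3% in the bin below the limit, 27.4% in the first granule-rich bin and 1.71% in the highest. The share with calprotectin genes (*S100A8* and *S100A9*, of maturing neutrophils and monocytes) at 1000 CPM or more went from 20.9% to 66.3%. Median depth was 20993 UMIs in the first granule-rich bin and 13454 in the highest.

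Single granule-rich cells differed widely in the ratio of *MPO* to the other core genes. The median log2 ratio of *MPO* to *PRTN3* was 0.30, with 5th and 95th percentiles of -1.30 and 5.19. *PRTN3* was above *MPO* in 428 of 1120 cells (38.2%). Against *AZU1* the median log2 ratio was 3.77, and *AZU1* was above *MPO* in 7 cells. Against *ELANE* it was 7.01, and 817 cells (72.9%) had no *ELANE* UMI. The spread was wider than counting alone gives. The variance of the *MPO* count over its binomial value was 26.9 with *PRTN3*, 13.5 with *ELANE* and 7.44 with *AZU1*, where 1 would be counting noise.

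The levels of the members over the 1120 granule-rich cells went together to unequal degrees. Spearman's rho was 0.85 for the neighbours *PRTN3* and *AZU1*, 0.81 for *MPO* and *PRTN3*, 0.76 for *MPO* and *AZU1* and 0.77 for *PRTN3* and *SRGN*. *CTSG* was at 0.33 with *MPO* and 0.36 with *PRTN3*. *LYZ* was the member least tied to the others, at 0.31 with *MPO*, 0.22 with *PRTN3*, -0.08 with *BPI* and -0.22 with *CTSG*. These points share 1 library and the choice of cells on the core genes, and sparse genes such as *ELANE* and *BPI* are bounded by their zeros.

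**Figure D2:**
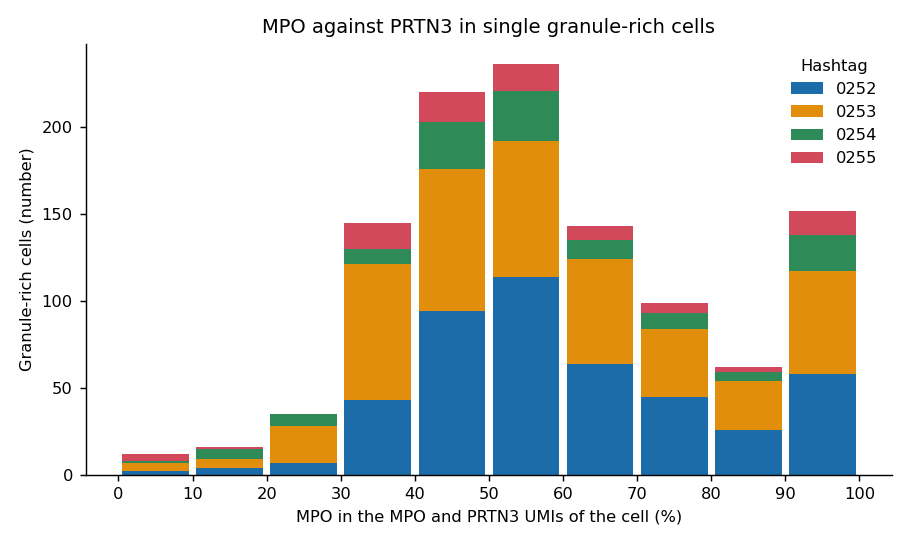
Number of granule-rich cells (y axis) by the percentage of *MPO* in their *MPO* and *PRTN3* UMIs (x axis, steps of 10%), stacked by hashtag. Most of the 1120 cells lie between 30% and 70%, and a second peak of 152 cells lies at 90% or more, with cells of all 4 hashtags.

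In 152 granule-rich cells (13.6%, 11.6 to 15.7%) *MPO* made up at least 90% of the *MPO* and *PRTN3* UMIs. These cells were chosen on that ratio. They had less of the core genes, with a median of 3025 CPM against 13719 in the other 968, and more UMIs, 21876 against 18182.5. *MPO* stood at 3218 and *PRTN3* at 126 CPM there, against 7445 and 8115. *CTSG* was at 23.7 against 61.2 and *BPI* at 2.07 against 34.9. Among factors of the lineage, *CEBPE*, which acts in later granulocyte maturation, was at 13.6 against 113 CPM. *IRF8*, a factor of monocyte and dendritic cell precursors, was at 53.6 against 29.9. *SPI1*, the gene for PU.1, was alike at 380.1 and 379. *CD34* cells made up 23.0% of the 152 and 9.19% of the others.

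Markers of eosinophils and of maturing neutrophils or monocytes divided the granule-rich cells in the members outside the core. In 100 cells with eosinophil granule genes (*EPX*, *PRG2*, *PRG3* and *CLC*) at 1000 CPM or more and no calprotectin call, *LYZ* stood at 71.3 CPM (59.8 to 84.2). In 452 cells with calprotectin and no eosinophil call it stood at 2168 (2134 to 2203), and in 564 cells with neither at 313 (303 to 323). *BPI* had another order. It was at 63.5 (52.7 to 75.8) in the eosinophil granule cells, 43.2 (38.4 to 48.4) with calprotectin and 13.9 (11.9 to 16.1) with neither. *DEFA4* was highest with calprotectin, at 282 against 75.9 and 16.3. *CTSG* was highest with neither, at 62.5 (58.1 to 67.1), next with calprotectin at 50.2 (45.1 to 55.8), and lowest in the eosinophil granule cells at 26.0 (19.3 to 34.3). The core genes also differed between these sets, at 9279 CPM in the eosinophil granule cells, 19841 with calprotectin and 11970 with neither, and their part in these differences was not tested. *PRTN3* was above *MPO* in 66 of the 100 eosinophil granule cells, in 39.8% of the calprotectin cells and in 31.9% of those with neither.

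The genes most like the summed core genes over the 7550 cells were ranked by Pearson's r of log levels, as a description. They were *MS4A3* (0.74), *RNASE2* (0.72), *S100A9* (0.70), *LYST* (0.68), *CSTA* (0.67), *LPPR3* (0.66), *CFD* (0.64), *CALR* (0.62), *HSP90B1* (0.61) and *HSPA5* (0.60). *MS4A3* marks granulocyte and monocyte progenitors, and *RNASE2* encodes a ribonuclease of eosinophil and neutrophil granules. *LYST* acts in the sorting of lysosomes and granules. *CALR*, *HSP90B1* and *HSPA5* are chaperones of the endoplasmic reticulum, where granule proteins are folded.

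*LPPR3* and *CFD* are the genes on either side of the *AZU1*, *PRTN3* and *ELANE* row, and they were looked at for this reason after their values were seen. The 5 genes span 55397 bases. To keep the choice of cells away from this region, cells were divided by *MPO* alone, which is on chromosome 17, into 990 cells at 2000 CPM or more and 6560 others. *LPPR3* stood at 139 against 15.7 CPM, 8.82-fold higher (8.31 to 9.35), and *CFD*, which encodes complement factor D, at 299.8 against 40.6, 7.39-fold (7.11 to 7.68). Between them *AZU1* was 50.1-fold higher, *PRTN3* 91.7-fold and *ELANE* 164-fold. Outside them the difference was small. *PTBP1* was 1.67-fold higher (1.61 to 1.74), and *MED16* was at 0.916 times (0.833 to 1.01) and *R3HDM4* at 0.906 times (0.829 to 0.988) the other cells. In this comparison 3.9% of 8349 genes were at least 2-fold higher. *AZU1*, *PRTN3* and *ELANE* are members, and *LPPR3* and *CFD* were picked for their likeness to the core genes, so nothing is read from the number of genes past 2-fold here. The annotated ends of *CFD* and *MED16* overlap on opposite strands.

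**Figure D3:**
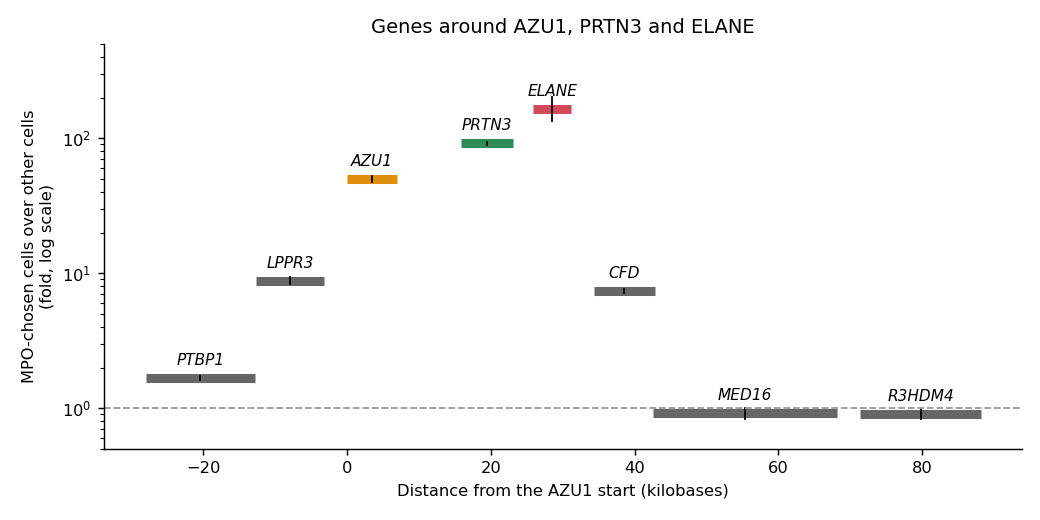
Fold of cells with *MPO* at 2000 CPM or more over the other cells (y axis, log scale) for genes around *AZU1*, drawn to scale by distance from the *AZU1* start in kilobases, with 95% counting intervals as vertical lines. *LPPR3*, *AZU1*, *PRTN3*, *ELANE* and *CFD* are between 7.39-fold and 164-fold, and *PTBP1*, *MED16* and *R3HDM4* next to them are between 0.906 and 1.67.

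Genes of the granule pathway were taken from lists. The list of 20 granule partners held activators, inhibitors, sorting factors, chaperones and other granule proteins. It also held *MS4A3*, the progenitor marker (12.2-fold higher), and *IGLL1*, a surrogate light chain gene (0.836 times). Of these 20 genes, 18 reached 10 CPM, 11 were past 2-fold in granule-rich cells and 0 were at or under 0.5 times, beside 3.85% and 4.3% of all genes. Their median log2 difference was 1.40, against 0.08 over all genes. *SLPI*, *CST7*, *RNASE3*, *DEFA3* and *VPS33B* reached 10 CPM only in granule-rich cells, so the count and the median are a description. *CST7*, which encodes cystatin F, an inhibitor of cathepsin C, was 28.9-fold higher (86.1 against 2.98 CPM), and *SLPI*, for a secreted inhibitor of elastase and cathepsin G, 26.9-fold (53.9 against 2.01). *SERPINB1*, for a cytosolic inhibitor of these proteases, was 1.84-fold higher. *CTSC*, whose product cathepsin C activates the serine proteases, was at 352 against 256 CPM, 1.37-fold. The protease gene *PRSS57* was 2.24-fold higher, the granule release factor *RAB27A* 2.30-fold and *P4HB*, for protein disulfide isomerase, 3.04-fold. The granule membrane gene *CD63* was at 0.578 times the other cells. *DEFA3* stood at 59.5 CPM and *DEFA1* had 0 UMIs, where 3 UMIs would be 0.143 CPM. These are near-identical copies, so how their reads were split is uncertain.

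Genes of the later granules were nearly absent. Of 12 genes for later granules and calprotectin, 3 reached 10 CPM, and *S100A8* (29.1-fold) and *S100A9* (18-fold) were past 2-fold, beside 3.85% of all genes. *CYBB*, for the oxidase subunit, was 1.66-fold higher. In granule-rich cells *LTF* and *MMP8* had 0 UMIs, *LCN2* stood at 0.143 CPM, *CAMP* at 0.380 and *MMP9* at 1.71. This held in the highest bin too, with *CAMP* at 1.22 CPM beside *DEFA4* at 679.

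Of 12 transcription factor genes, 6 were past 2-fold and 2 were at or under 0.5 times, beside 3.85% and 4.3% of all genes. *CEBPE*, *GFI1* and *KLF4* reached 10 CPM only in granule-rich cells, so this count too is a description. *CEBPE* was 17.7-fold higher (97.2 against 5.49 CPM), *KLF4* 4.67-fold, *CEBPA* 4.39-fold, *GFI1* 3.83-fold, *CEBPD* 2.97-fold and *CEBPB* 2.04-fold. *GATA1* and *GATA2*, of erythroid, megakaryocyte and progenitor cells, were at 0.213 and 0.307 times. *SPI1* was at 1.2 times and *RUNX1* at 1.70 times. *MYB* was at 79.1 against 40.7 CPM, 1.94 times, and within the granule-rich cells it went from 49.3 in the first bin to 134 in the highest. None of 6 cycling genes was past 2-fold either way, and *MKI67* was at 1.38 times.

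Cells with complement C1Q genes (*C1QA*, *C1QB* and *C1QC* at 500 CPM or more), which mark macrophages, were examined for granule transcripts. Of 709 such cells, 27 were granule-rich (3.81%, 2.52 to 5.49%). In these 27, *LYZ* reached 2790 CPM, *MPO* 1844 and *PRTN3* 2294, and *CTSG* stood at 2.14 (0.0542 to 11.9). The other 682 had a median depth of 12509 UMIs and held the core genes at 164 CPM (156 to 172). This value moved with the limits. It was 264 with granule-rich set at 5000 CPM, 248 with a mitochondrial limit of 10%, and 107 in cells with core genes under 500 CPM. In a droplet library RNA from broken cells is read in every cell, so 2 groups that should lack granule genes are given beside it. The 85 collagen cells (*COL1A1*, *COL1A2* and *COL3A1* at 1000 CPM, median depth 14530) held the core genes at 413 CPM (379 to 449.8), and 241 globin cells (globin genes at 5000 CPM, median depth 19034) at 88.8 (80.5 to 97.7).

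For *MPO* and *PRTN3* the C1Q cells lay between these groups. *MPO* stood at 82.2 CPM in C1Q cells, 227 in collagen cells and 53.4 in globin cells, and *PRTN3* at 61.7, 169 and 30.2. After thinning, an *MPO* UMI was read in 28.1%, 51.9% and 28.0% of them. *MPO* was 1.33 times *PRTN3* (1.19 to 1.48) in C1Q cells and 1.34 times (1.12 to 1.61) in collagen cells. The C1Q cells were thus below the collagen cells in both genes and had the same ratio, and no expression is read from these values. *ELANE*, *DEFA4*, *BPI*, *CTSG* and *SERPINB10* were at 0.319 to 1.17 CPM in C1Q cells.

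*LYZ* and *SRGN* were higher in the C1Q cells than in the collagen and globin cells. *LYZ* was at 187 CPM (178 to 196) against 41.0 (30.7 to 53.6) in collagen cells and 29.9 (25.2 to 35.3) in globin cells. It was 3.03 times *PRTN3* (2.76 to 3.34) there, 0.242 times in collagen cells and 0.993 times in globin cells. After thinning, a *LYZ* UMI was read in 26.9% of C1Q cells, 27.3% of collagen cells and 11.9% of globin cells. Against collagen cells the higher level thus came from more UMIs in some cells. Against globin cells a larger share of the C1Q cells also had a *LYZ* UMI. Of the 709 C1Q cells, 71 were also calprotectin cells, a group with *LYZ* at 1276 CPM outside the granule-rich set. A set of 632 C1Q cells that were neither granule-rich nor calprotectin cells was chosen after seeing the data. In them *LYZ* was at 92.2 CPM (85.9 to 98.8) and 1.99 times *PRTN3* (1.76 to 2.24), and *AZU1* was 0.244 times *PRTN3* (0.194 to 0.305). That *LYZ* level was not particular to C1Q cells. Cells with class II genes (*HLA-DRA*, *HLA-DRB1* and *CD74* at 1000 CPM) and no C1Q call had *LYZ* at 84.9 CPM (80.2 to 89.9) outside the granule-rich set. Cells outside all marker groups had it at 49.5 (47.1 to 51.9). *SRGN* was at 282 CPM (272 to 293) against 68.1 and 203, and at 262 (251 to 273) without the calprotectin cells. It was higher still in other groups outside the granule-rich set, at 322 in cells with platelet chemokine genes, 505 in calprotectin cells, 532 in cells with mast cell genes and 1118 in eosinophil granule cells. *AZU1* was 0.303 times *PRTN3* (0.255 to 0.360) in C1Q cells, 0.0822 times (0.0478 to 0.133) in collagen cells and 0.168 times (0.104 to 0.260) in globin cells. Its level of 18.7 CPM (16.1 to 21.7) in C1Q cells overlapped the 13.9 (8.25 to 22.0) of collagen cells and was above the 5.06 (3.24 to 7.53) of globin cells. The ratio of *AZU1* to *PRTN3* was not particular to C1Q cells. Outside the granule-rich set it was 0.395 in cells with mast cell genes and 0.301 in calprotectin cells. It was 0.248 in CD34 cells, 0.247 in eosinophil granule cells, 0.211 in cells of no marker group, 0.210 in platelet chemokine cells and 0.163 in class II cells.

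**Figure D4:**
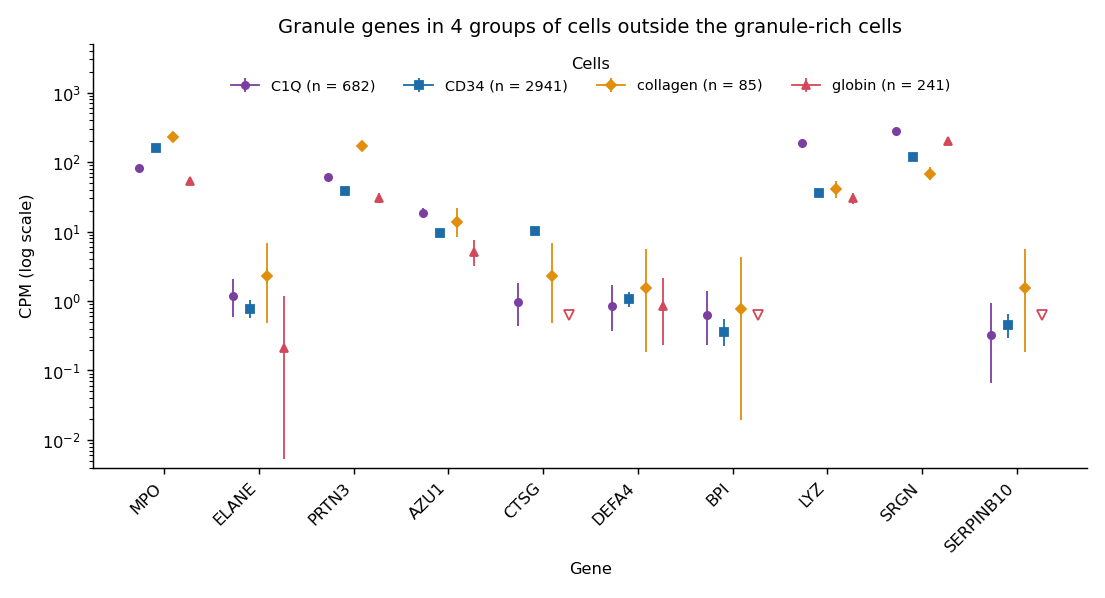
Level of each gene (CPM, log axis) in C1Q, CD34, collagen and globin cells that were not granule-rich, with 95% counting intervals. Open triangles mark 0 UMIs and stand at the level of 3 UMIs. *LYZ* is at 187 in C1Q cells and at most 41.0 in the other groups drawn, and *CTSG* is at 10.3 in CD34 cells and at most 2.32 in the others drawn.

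*CD34*, a surface protein of blood progenitors and endothelium, was at 100 CPM or more in 3065 cells, of which 124 were granule-rich (4.05%, 3.38 to 4.80%). In the other 2941 the core genes stood at 206 CPM (202 to 209), between globin and collagen cells. In cells with core genes under 500 CPM the value was 124. The ratio of the genes differed from the background groups. *MPO* was 4.05 times *PRTN3* (3.87 to 4.24), against 1.34 times in collagen cells and 1.77 times (1.44 to 2.19) in globin cells. These groups share cells with the CD34 group. With granule-rich cells included, 123 of 244 globin cells and 13 of 87 collagen cells were also CD34 cells. The highest count of *MPO* in these cells was 61 UMIs. The ratio came down with the core level. Where core genes were under 250 CPM, *MPO* was 2.22 times *PRTN3* (2.08 to 2.37) in 2365 CD34 cells and 1.73 times (1.60 to 1.88) in 1968 cells with no *CD34* UMI. Over all 2402 cells with no *CD34* UMI that were not granule-rich, *MPO* was 2.31 times *PRTN3* (2.20 to 2.42). The 1769 cells that were neither granule-rich nor in any of the marker groups had *MPO* at 4.81 times *PRTN3* (4.53 to 5.10). These cells may hold *CD34* UMIs below the limit of 100 CPM. They therefore do not show whether the ratio is particular to cells with *CD34*.

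Granule-rich cells with *CD34* differed in most members from those without. In the 124, *MPO* made up 54.0% of core UMIs (53.3 to 54.8), against 45.2% (45 to 45.4) in 756 granule-rich cells with no *CD34* UMI. *ELANE* was at 32.9 against 179 CPM, *DEFA4* at 36.7 against 170.4, *BPI* at 9.28 against 40.6 and *LYZ* at 319 against 1236. The core genes also differed, 6854 against 17892 CPM. *CTSG* was alike in both, at 56.4 (47.6 to 66.4) and 55.5 (51.5 to 59.7).

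*CTSG* had the largest share of its own UMIs outside the granule-rich set, 51.9%. It was read in 1177 cells, of which 669 were not granule-rich. These were 10.4% of the other cells, against 67.8% with an *MPO* UMI and 78.1% with an *SRGN* UMI. It was at 10.3 CPM (9.48 to 11.1) in CD34 cells outside the granule-rich set and at 16.1 (14.8 to 17.5) in the cells of no marker group. Outside that set it was at 7.77 in eosinophil granule cells, 7.73 in cells with mast cell genes and 6.07 in class II cells. The intervals of the eosinophil granule and mast cell groups overlapped that of the CD34 cells, and these groups share cells with the CD34 group. *CTSG* was at 2.32 (0.479 to 6.78) in collagen cells, 1.27 in calprotectin cells and 0.958 (0.438 to 1.82) in C1Q cells. No *CTSG* UMI was read in the 241 globin cells, where 3 UMIs would be 0.633 CPM, or in 78 cells with *PF4* and *PPBP*, platelet chemokine genes. These groups are not separate. With granule-rich cells included, 58 of 80 platelet chemokine cells were also globin cells. After thinning, 4.30% of CD34 cells, 5.17% of the cells of no marker group and 0.451% of C1Q cells had a *CTSG* UMI.

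Cells outside the granule-rich set with at least 2 *CTSG* UMIs numbered 236 and were compared, after their values were seen, with 5761 cells there with none. They were deeper, with a median of 22548.5 UMIs against 17940. *MPO* was at 385 against 134 CPM in them and *PRTN3* at 74.0 against 45.7. *CEBPA*, the early myeloid C/EBP factor, was at 43.4 against 20.8, *CEBPE* at 24.7 against 4.25, and *IGLL1*, a surrogate light chain gene also read in early progenitors, at 189.8 against 94.8. *GATA2* was at 105 against 137. The 4 hashtags gave 51, 50, 77 and 58 of these cells.

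The hashtags differed in how many cells were granule-rich. The share was 21.4% (19.7 to 23.2) of 2136 cells in 0252, 22.8% (21.0 to 24.7) of 1996 in 0253, 6.77% (5.66 to 8.01) of 1847 in 0254 and 5.28% (4.23 to 6.51) of 1571 in 0255. Median depth was between 17621 and 18769.5 UMIs. Over all cells the core genes stood at 3344, 3473, 980.0 and 899 CPM in this order, and the highest was 3.86 times the lowest (3.81 to 3.91). Within the granule-rich cells they stood at 15622, 14606, 11191 and 11964, and the highest was 1.40 times the lowest (1.38 to 1.41). The median core level of these cells was 12905, 10239, 7288 and 7469 CPM. The granule-rich cells were chosen by a lower limit on the same genes. The range within them is therefore not weighed against the range over all cells.

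Over all cells *MPO* was at 1676 CPM in 0252, 1632 in 0253, 513 in 0254 and 456 in 0255. *PRTN3* was at 1467, 1665, 425 and 401. *ELANE* had the widest range, at 33.8, 25.1, 4.29 and 5.40 (7.88 times, 6.65 to 9.40). In every member but *CTSG* the intervals of 0252 and 0253 lay above those of 0254 and 0255. The share of all genes with this order was not computed, so nothing is read from it. *DEFA4* ranged over 6.82 times, *BPI* 5.40, *AZU1* 4.49, *SERPINB10* 4.41, *LYZ* 4.19, *PRTN3* 4.15, *MPO* 3.67 and *SRGN* 2.43 times. Of the 8 members at 10 CPM or more over all cells, 7 were past 2 times between the highest and lowest hashtag, against 1.94% of 7832 genes. *ELANE* and *DEFA4* reached 10 CPM only in 0252 and 0253, so the count is a description. The member of the 8 that was not past 2 times was *CTSG*. It was at 17.4, 17.9, 16.1 and 16.4 CPM, and the highest was 1.11 times the lowest (0.990 to 1.24).

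**Figure D5:**
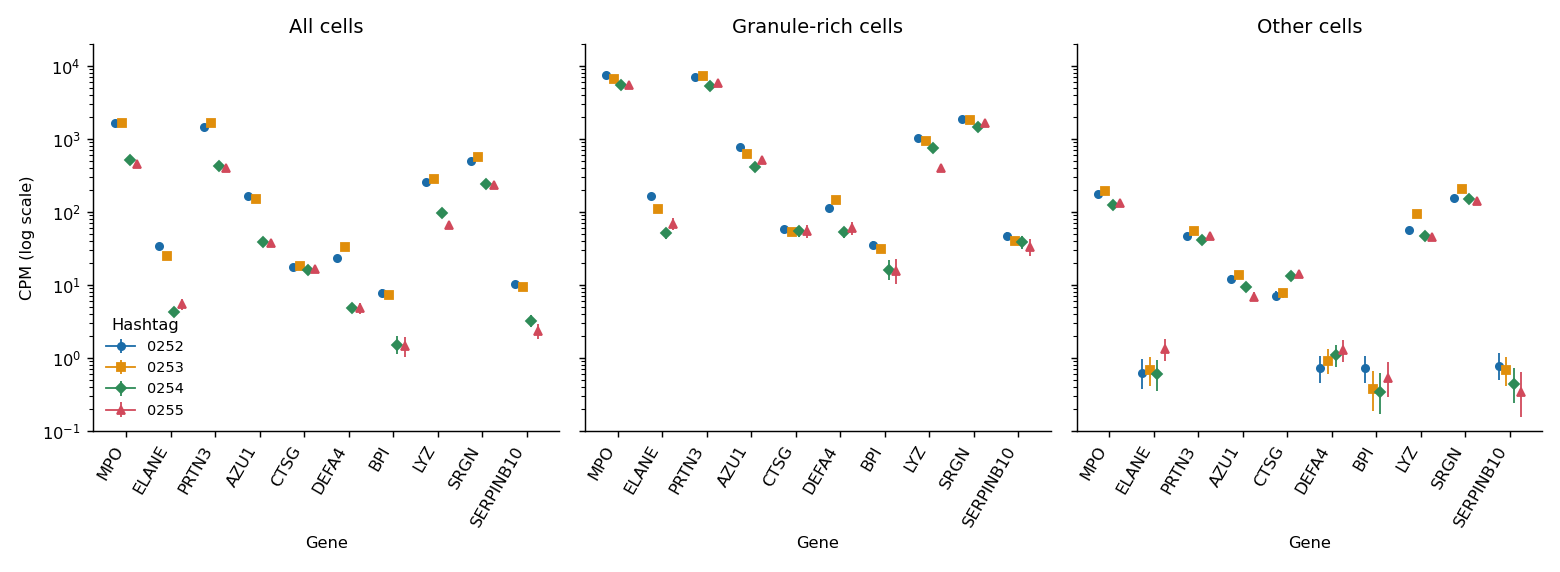
Level of each gene (CPM, log axis) by hashtag in all cells, in granule-rich cells and in the other cells, with 95% counting intervals. Over all cells the genes other than *CTSG* are higher in 0252 and 0253 than in 0254 and 0255, an order whose share over all genes was not computed. *CTSG* lies between 16.1 and 17.9 in all 4, and in the other cells it is highest in 0255 and lowest in 0252.

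Within the granule-rich cells the pooled levels of *ELANE*, *DEFA4*, *BPI* and *LYZ* differed by hashtag. *ELANE* was at 165 CPM in 0252, 109.8 in 0253, 51.2 in 0254 and 69.1 in 0255. *DEFA4* was at 112, 143, 52.8 and 59.8, and *BPI* at 35.6, 30.8, 16.2 and 15.7. *LYZ* was at 1033, 928, 745 and 394. The shares of cells with a UMI were closer. They were 18.6%, 20.4%, 16.8% and 14.5% for *DEFA4* and 24.9%, 25.3%, 20% and 15.7% for *BPI*, and the intervals of all 4 hashtags overlapped for both genes. The order of *ELANE* was not kept in the bin from 8000 to 16000, where it stood at 25.2, 20.8, 52.1 and 45.3 CPM. The cells of the highest bin made up 17.9% (14.5 to 21.8) and 16.3% (13.0 to 20.0) of granule-rich cells in 0252 and 0253, and 8% (3.90 to 14.2) and 10.8% (5.08 to 19.6) in 0254 and 0255. Across the hashtags only the intervals of 0252 and 0254 did not overlap. Of the 10 members, 5 were past 1.5 times (*ELANE* 3.22, *DEFA4* 2.71, *LYZ* 2.62, *BPI* 2.27 and *AZU1* 1.92), beside 14.1% of 7904 genes. *ELANE* and *AZU1* are core genes, on which these cells were chosen, and the hashtags differed in core level. The lowest level of *BPI*, in 0255, rests on 27 UMIs. The count is therefore a description and is not weighed against the share of all genes. *MPO* ranged over 1.40 times, *PRTN3* 1.37, *SRGN* 1.3 and *CTSG* 1.09 (0.954 to 1.24). The share of *MPO* in core UMIs was 48.7%, 45.4%, 48.6% and 45.8%, and did not follow the order of the levels.

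In the cells that were not granule-rich *CTSG* was higher in the hashtags with few granule-rich cells. *CTSG* was at 7.13 CPM (6.24 to 8.12) in 0252, 7.64 (6.68 to 8.70) in 0253, 13.1 (11.9 to 14.4) in 0254 and 14 (12.6 to 15.5) in 0255. The core genes there were highest in 0253, at 260 CPM, and lowest in 0254, at 175. The equal level of *CTSG* over all cells was therefore made of fewer granule-rich cells and a higher level outside them in 0254 and 0255. In the lowest of the 8 bins of core level *CTSG* stood at 4.19, 3.31, 11.8 and 15.8 in the 4 hashtags. *MPO* stood at 33.9, 32.3, 34.0 and 34.5 there, but it is part of the sum that sets the bins. Over all cells that were not granule-rich, *MPO* was at 175, 191, 124 and 133 CPM.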

How the data were processed

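Nonadherent day 5 cells of 4 coating conditions were sequenced as 1 hashtagged 10x library. Cell Ranger 6.0.1 was used for alignment to hg19, and the authors deposited UMI counts per gene and barcode, not normalized, with a hashtag call for each barcode. The gene counts and the calls share all 10836 barcodes. The annotation release is not given in the sources used here. Barcodes called for 1 hashtag with at most 36000 UMIs, 6000 genes and 18% mitochondrial UMIs were kept. Doublets were removed by the hashtag calls and these limits, and no doublet caller was run, so droplets with 2 cells of 1 hashtag may remain.

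UMIs were summed over cells and given per 1000000 gene UMIs (CPM). Intervals are Poisson, Clopper-Pearson or conditional for ratios. Cells are not replicates, and no p-value was computed. Per-cell log2 ratios and folds over all genes had 0.5 UMI added. Thinning drew 5000 UMIs per cell with a fixed seed and left out 68 shallower cells. Marker groups were cells past a summed level in CPM, given at first use. *TPSB2* was not found. The code was checked on simulated data. Python 3.11.15, numpy 2.4.6, scipy 1.17.1, pandas 2.3.3 and matplotlib 3.10.9 were used.

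The members, lists, limits and motifs were chosen with earlier results of these data known. Named genes are the 10 members, the lists, and the 10 genes with the highest Pearson's r with the core genes among genes read in at least 100 cells, on the log of 1 plus UMIs per 10000. Genes outside this rule are said to be chosen after their values were seen. Promoter sequences are from RefSeq, matched by symbol for 3 of the 10 members, and hg19 positions are from the GENCODE annotation lifted to that build. Alternatives changed the limits on cells, the granule-rich, C1Q and CD34 limits, the hashtag count needed, and depth.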

Additional observations from a re-analysis of the deposited data

Results flagged for a closer look

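Granule-rich barcodes were also present among barcodes that the comparisons do not use. Of 809 barcodes called negative for all hashtags and within the limits, 53 were granule-rich, 6.55% (4.95 to 8.48%), against 14.8% of the cells kept. Of 1267 barcodes called as doublets, with the mitochondrial limit only, 256 were granule-rich, 20.2% (18 to 22.5%), at a median depth of 28222 UMIs. In the granule-rich barcodes of these sets *MPO* made up 42.9% and 47.1% of core UMIs, against 47.1% in the granule-rich cells kept.

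Among barcodes with C1Q genes, 9.42% of the doublets (13 of 138) and 3.81% of the kept cells were granule-rich. Among barcodes with *CD34* at 100 CPM or more, the shares were 12.6% (73 of 580) and 4.05%. Doublets of 2 cells with the same hashtag cannot be told from single cells by the calls, and their part in the granule-rich C1Q and CD34 cells was not tested.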

How the results depend on the processing

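All values rest on 1 library with 1 pool per condition, so the intervals do not cover the spread between cultures, and depth limits *ELANE*, *DEFA4*, *BPI* and *SERPINB10* in single cells. No paired analysis was possible because there is 1 library and no replicate number. Of 75 values recomputed under alternatives, 26 were unchanged and 49 lay outside the counting interval of the reported value. Unchanged means within that interval or, for the count of members outside the core past 2-fold, still at 6. Only the 30 recomputed folds of the 6 members outside the core could change direction, and 0 did. The lowest of these folds was 4.58, for *CTSG* with a mitochondrial limit of 10%. Without calprotectin cells, a choice made after seeing the data, *LYZ* in C1Q cells was at 92.2 CPM in place of 187. The values below follow the order: percentage of granule-rich cells, percentage of *MPO* in core UMIs, highest over lowest hashtag for the core genes in all and in granule-rich cells, and core level in CPM in C1Q and in CD34 cells outside the granule-rich set. A mitochondrial limit of 10% gave 41.4%, 46.4%, 4.14 and 1.29 times, 248 and 298, and 52.3% for *MPO* in granule-rich CD34 cells. Granule-rich set at 1000 CPM gave 18.7% and 47.9%, 1.55 times in granule-rich cells, 126 and 160.0. Set at 5000 it gave 10.5% and 45.1%, 1.34 times, 264 and 284. Requiring 1.2 times the smallest called hashtag count gave 15.8% and 47.3%, 3.68 and 1.37 times, and 213 in CD34 cells. Without limits on cells, *MPO* was 47.6%, the granule-rich hashtag ratio 1.33 and the CD34 level 216. Thinning to 5000 UMIs gave 46.2% for *MPO* and 199 for CD34 cells. The C1Q level was 189.9 with C1Q set at 200 CPM and 149 at 1000. The CD34 level was 216 with CD34 set at 1 UMI and 195 at 200 CPM. In cells with core genes under 500 CPM, a limit chosen after seeing the data, the levels were 107 in C1Q and 124 in CD34 cells. The cause of these shifts was not tested beyond the number of cells each limit leaves.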

Other observations

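The 152 granule-rich cells with *MPO* at 90% or more of *MPO* and *PRTN3* were compared with the other 968 over all genes, after their values were seen. Among genes at 50 CPM or more in the 152, the 8 with the highest ratio were *KCNE1L* (3.34-fold, 52.1 against 15.6 CPM), *ABI3* (2.95), *AMICA1* (2.70), *ACY3* (2.60), *SPINK2* (2.46), *MEF2C* (2.31), *RUNX3* (2.15) and *C1QTNF4* (2.14). *SPINK2* and *C1QTNF4* are read in early blood progenitors, *MEF2C* encodes a factor of lymphoid and monocyte potential, and *AMICA1* encodes a junction adhesion protein of leukocytes. The cells were chosen on a ratio of 2 members and at a lower core level, and these values are a description.

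The genes most like *CTSG* over the 7550 cells, as Pearson's r of log levels, were *LPPR3* (0.35), *CALR* (0.34), *CST7* (0.34), *NUCB2* (0.32) and *MS4A3* (0.31), all weaker than those of the core genes. *LPPR3* is the neighbour of *AZU1*, on another chromosome from *CTSG*.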
